A study of Mus musculus with 11 samples.

Results

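The miR-25/92 seed family is a group of microRNAs (miRNAs) that come from several places in the genome and carry the same seed, the short stretch of bases near the 5′ end with which a miRNA pairs to its target mRNAs. Of the 1907 mature miRNA names in the deposited tables, 6 were followed here by name: mmu-miR-25-3p, mmu-miR-32-5p, mmu-miR-92a-3p, mmu-miR-92b-3p and mmu-miR-363-3p, which share the seed, and mmu-miR-92b-5p, the other arm of the miR-92b hairpin, which does not. Of these 6, 5 passed the filter on low counts that 479 miRNAs passed in all, and miR-363-3p did not. The 6 were picked by name, with the differences between the groups in these same libraries already known, so that those differences are given as a description and are not independent evidence.

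Small RNA was sequenced from the brain cortex of male Balb/cOlaHsd mice, aged 3 months by the labels (the methods give a wider range), 3 days after surgery. For 5 samples the left middle cerebral artery had been closed permanently (pMCAO), a model of ischemic stroke without reperfusion, and the labels give their tissue as peri-ischemic cortex, which surrounds the ischemic core. For 6 sham samples the artery was exposed and lifted but not closed, and the labels give cortex. Both groups were of the same strain, and the methods describe both tissues as peri-ischemic. The tables of both groups were deposited under names with the word vehicle, which the labels do not explain. The pieces of tissue hold all cell types of the cortex, so that more cells of a type cannot be told apart from more of a miRNA per cell.

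The seed family is best known from the miR-17-92 cluster, a single transcript that is cut into several miRNAs, among them miR-92a, and that is active in dividing cells. miR-25 is cut from an intron of Mcm7, a gene of DNA replication, next to miR-106b and miR-93, while miR-92b has a hairpin of its own and is known from neural progenitor cells of the developing cortex. In blood vessels, miR-92a is known as a brake on the growth of endothelial cells, and several family members are also present in blood cells. Because the seed is shared, the members are predicted to bind many of the same target sites, whichever locus they come from.

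The mature sequences, from RefSeq's table on GRCm38.p6 (the assembly also called mm10, to which the authors mapped their reads), are shown to make plain what the members share and how close they are to each other. Bases 2 to 8, the seed, are in capitals, and all 6 entries were found in the table.
miR-92b-3p: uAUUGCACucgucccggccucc
miR-92a-3p: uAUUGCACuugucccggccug
miR-25-3p: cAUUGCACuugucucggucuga
miR-32-5p: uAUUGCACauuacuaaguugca
miR-363-3p: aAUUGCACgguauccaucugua
miR-92b-5p: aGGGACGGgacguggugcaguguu

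The first 5 carried the seed AUUGCAC. Among all listed names with a sequence in that table (1623 of 1907), 1 more had the same seed, miR-367-3p, which had 0 counts in every library. The seed of miR-92b-5p, GGGACGG, was found in no other listed name with a sequence in that table. Outside the seed the members fell into a close and a distant set. Aligned without gaps from the 5′ end over 21 bases, with positions counted from 1 at that end and the base of miR-92a-3p given first, miR-92b-3p differed from miR-92a-3p at 2 positions (U10C and G21C). Between miR-92a-3p and miR-25-3p there were 3 differences (U1C, C14U and C18U). miR-32-5p differed from miR-92a-3p at 10 positions and miR-363-3p at 11. The deposited counts give no account of how reads that match more than 1 entry, or match with differences, were assigned. A read in the length range of mature miRNAs that was cut short at the 3′ end can lose G21C but keeps U10C. Whether miR-92a-3p and miR-92b-3p shared reads is not known.

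On GRCm38, the mature miR-92b-3p lies on the minus strand of chromosome 3 from 89227126 to 89227147, and miR-92b-5p on the same strand from 89227165 to 89227188. Their hairpin, Mir92b (ENSMUSG00000076255.2), overlaps no other annotated gene of GENCODE vM21. The mature miR-25-3p lies on the minus strand of chromosome 5 from 138165332 to 138165353, inside Mcm7 (ENSMUSG00000029730.16) on the same strand. Its hairpin overlaps an exon of a Mcm7 transcript, but no coding or untranslated stretch. The mature miR-32-5p lies on the minus strand of chromosome 4 from 56895272 to 56895293, in an intron of Tmem245 (ENSMUSG00000055296.14), which runs on the same strand. miR-92a-3p has 2 source hairpins with an identical mature form. Mir92-1 places it on the plus strand of chromosome 14 from 115044476 to 115044496, within an exon of the long non-coding host gene Mir17hg (ENSMUSG00000089726.2), and Mir92-2 on the minus strand of chromosome X from 52741854 to 52741874. miR-363-3p lies on the minus strand of chromosome X from 52741697 to 52741718, beside Mir92-2.

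The sham libraries held 1429037 to 2319810 counts and the pMCAO libraries 744877 to 1411620, with every sham library deeper than every pMCAO library. Levels are given as CPM, counts scaled to a common library size with edgeR's TMM factors (TMM-normalised CPM). In single libraries, 3 counts, the floor used here, corresponded to between 1.50 and 3.55 CPM. In a check for a library deposited more than once, all 25 pairs within a group differed by far more than sampling noise. The neuronal entries fixed as markers (miR-124, miR-9, miR-128-3p and miR-138-5p, 6 names) together reached 281345 CPM or more in every library.

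Within the family, miR-92b-3p had by far the most counts in both groups. Its counts made up 79.3 ± 2.60% of the counts with the family seed in sham libraries (SD, n = 6) and 73.0 ± 3.35% in pMCAO libraries (SD, n = 5). The share of miR-92a-3p was 13.0 ± 2.27% in sham and 19.1 ± 2.77% in pMCAO libraries. Mir92-1 and Mir92-2 give an identical miR-92a-3p, so that its counts also depend on how reads with several matches were treated, which is not given. miR-25-3p took 3.47 ± 1.58% and 4.39 ± 1.01%, and miR-32-5p 4.23 ± 1.43% and 3.46 ± 0.862%. The whole seed family was a small part of the miRNA counts, with 0.0670 ± 0.00962% of all counts in sham and 0.0966 ± 0.0239% in pMCAO libraries.

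**Figure D1:**
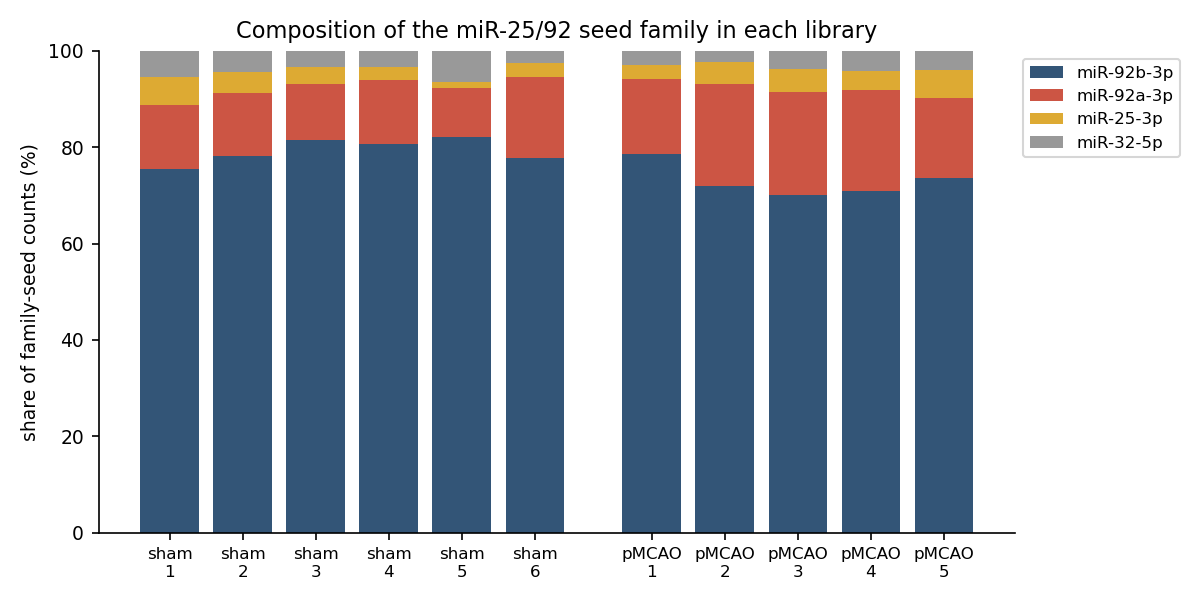
Share of each family member in the counts with the seed AUUGCAC, in percent (vertical axis), in each of the 6 sham and 5 pMCAO libraries (horizontal axis). miR-92b-3p fills most of every bar, and the segment of miR-92a-3p averages 13.0% in sham and 19.1% in pMCAO libraries; miR-363-3p, with at most 1 count in a library, is not drawn.

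The order of the levels was not used to choose the members and was therefore tested. Mature forms had 21 to 24 bases, and the order of the CPM values was the same with and without division by this length in each group. In the order of the mean sham level, neighbours were compared within each of the 11 libraries on log2(CPM + 1). An exact sign-flip permutation test was used, two-sided, with Benjamini-Hochberg adjustment over the 5 pairs of neighbours. That order was set from the sham libraries tested here, so that the p-values describe it and are not independent evidence. miR-92b-3p exceeded miR-92a-3p by 2.30 ± 0.437 on the log2 scale (SD, n = 11), in 11 of 11 libraries (exact permutation test, p = 0.000977, adjusted p = 0.00163). miR-92a-3p exceeded miR-32-5p by 2.01 ± 0.693 (SD), also in 11 of 11 libraries (same exact test, adjusted p = 0.00163). The next neighbours, miR-32-5p and miR-25-3p, did not differ beyond their spread, at 0.0291 ± 0.773 (SD), with miR-32-5p higher in 3 of 11 libraries (same exact test, adjusted p = 0.943), and without sham replicate 5 the sign turned to -0.18. miR-25-3p exceeded miR-92b-5p by 0.72 ± 0.593 (SD), in 10 of 11 libraries (same exact test, adjusted p = 0.00488). miR-92b-5p exceeded miR-363-3p in 11 of 11 libraries (same exact test, adjusted p = 0.00163), and no size is given for this difference, since miR-363-3p had 0 counts in 9 libraries and the size is set by the number added before the logarithm (3.99 with 1 CPM added and 1.42 with 10 CPM added). For 11 libraries, 0.000977 is the smallest p the test can give. The order is one of deposited counts, and the treatment of reads with several matches, which can affect miR-92a-3p, is not known. How evenly different sequences entered the libraries was not measured, and a test across libraries cannot show it. The order of molecules in the tissue is therefore not known.

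For pMCAO against sham, 1 edgeR quasi-likelihood fit was made over all 479 miRNAs, with Benjamini-Hochberg adjustment over all of them and a threshold of 0.05. At that threshold 7.10% of the miRNAs tested were called, 4.38% higher and 2.71% lower in pMCAO. Of the 5 family entries tested, 2 were called, miR-92a-3p and miR-92b-5p, both higher, and 0 were called lower. All 5 log2 fold changes were above 0, from 0.0497 to 0.895, with a median of 0.65, where the median of all 479 was 0.00147. Nothing about the family as a whole is read from these counts, since its members were chosen with the same comparison known.

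**Figure D2:**
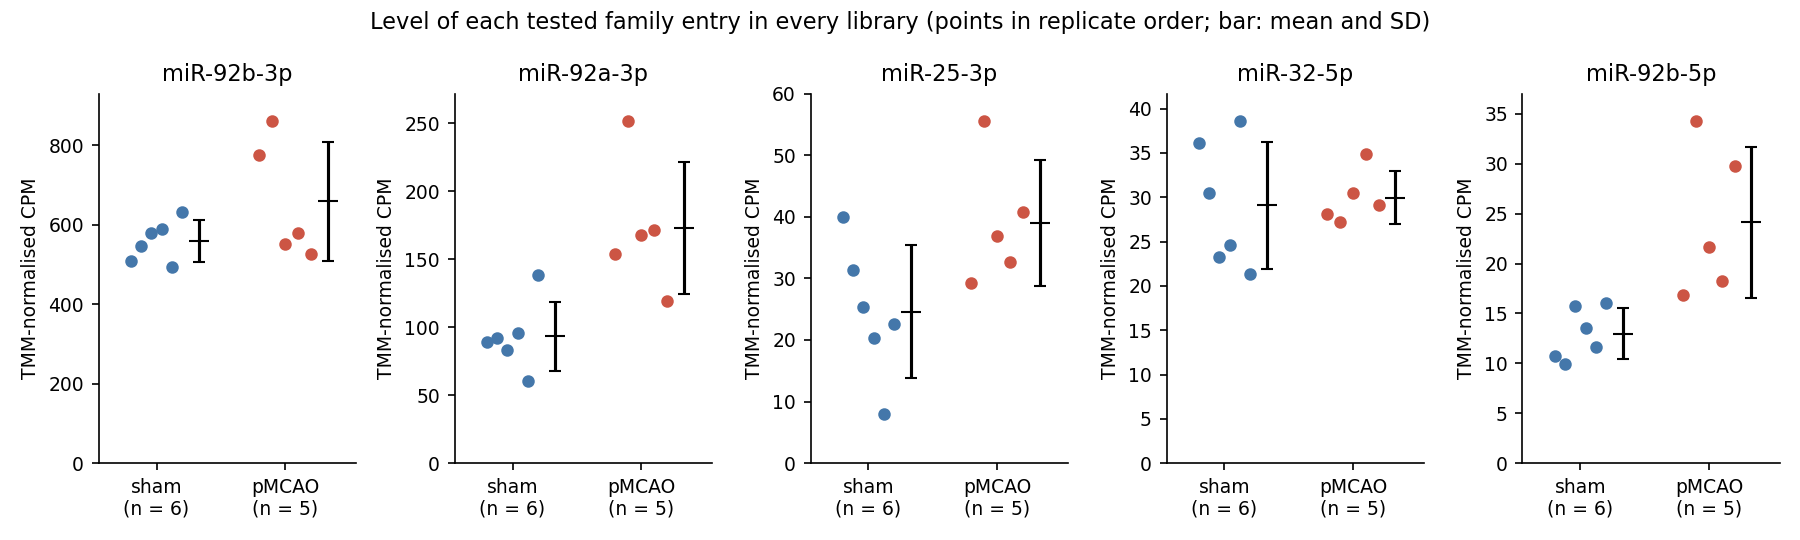
TMM-normalised CPM (vertical axes, from 0, scaled for each panel) of the 5 tested entries in every sham (blue) and pMCAO (red) library, with the mean and SD of each group in black. In miR-92b-5p the lowest pMCAO library, at 16.9 CPM, stands just above the highest sham library, at 16.0 CPM, and in the other 4 panels the groups overlap.

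miR-92a-3p, the member made from the miR-17-92 cluster and from the X-linked copy, rose in pMCAO tissue. In pMCAO replicates 1 to 5 its level was 154, 252, 168, 171 and 119 CPM, from 137 to 226 counts. In sham libraries the lowest, median and highest levels were 60.5, 90.6 and 138 CPM, from 83 to 233 counts. The groups overlapped only through sham replicate 6, the highest sham library, and pMCAO replicate 5, the lowest pMCAO library. The mean level was 93.2 ± 25.3 CPM in the 6 sham and 173 ± 48.7 CPM in the 5 pMCAO libraries (SD). The log2 fold change was 0.88 ± 0.21 (SE), with an edgeR adjusted p = 0.0252. The coefficient of variation was 27.2% in sham and 28.2% in pMCAO libraries, where counting alone would give 8.08% and 7.18%, so that most of the spread lay between the libraries. The call was lost without sham replicate 3 (log2 fold change 0.86, adjusted p = 0.0693) and without pMCAO replicate 2 (0.75, adjusted p = 0.0576), the library in which it was highest.

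miR-92b-5p, the less abundant arm of the miR-92b hairpin, rose by a similar factor from a much lower level. It had 10.8, 9.98, 15.7, 13.6, 11.7 and 16.0 CPM in sham replicates 1 to 6 and 16.9, 34.3, 21.6, 18.2 and 29.8 CPM in pMCAO replicates 1 to 5. The groups did not overlap, which was true of 7.52% of all miRNAs tested (4.18% with pMCAO wholly above sham and 3.34% with pMCAO wholly below), but the closest libraries nearly touched and their counts were low. The lowest pMCAO value rested on 15 counts (95% exact Poisson interval 8.40 to 24.7, which covers counting error only) and the highest sham value on 27 counts (17.8 to 39.3). Mean levels were 12.9 ± 2.55 CPM in the 6 sham and 24.2 ± 7.57 CPM in the 5 pMCAO libraries (SD), and the log2 fold change was 0.90 ± 0.23 (SE), with an edgeR adjusted p = 0.0386. The coefficient of variation among sham libraries, 19.7%, was no larger than the 21.9% that counting alone would give. Among pMCAO libraries it was 31.3%, above the 18.8% from counting alone.

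The call of miR-92b-5p depended on single libraries and on the settings of the fit. Without a filter on low counts the adjusted p from edgeR was 0.0895, and with the replicate number as a block it was 0.0858. When each library was left out in turn, 7 of 11 fits no longer called it, with adjusted p between 0.0544 and 0.0969 and log2 fold changes between 0.79 and 0.96. Leaving out sham replicates 1, 2, 3, 4 or 5 gave adjusted p of 0.0589, 0.0851, 0.0574, 0.0642 and 0.0544, and leaving out pMCAO replicates 2 or 5 gave 0.0969 and 0.0840. The fold change itself stayed above 0 in all 11 of them, between 0.79 and 1.00.

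**Figure D3:**
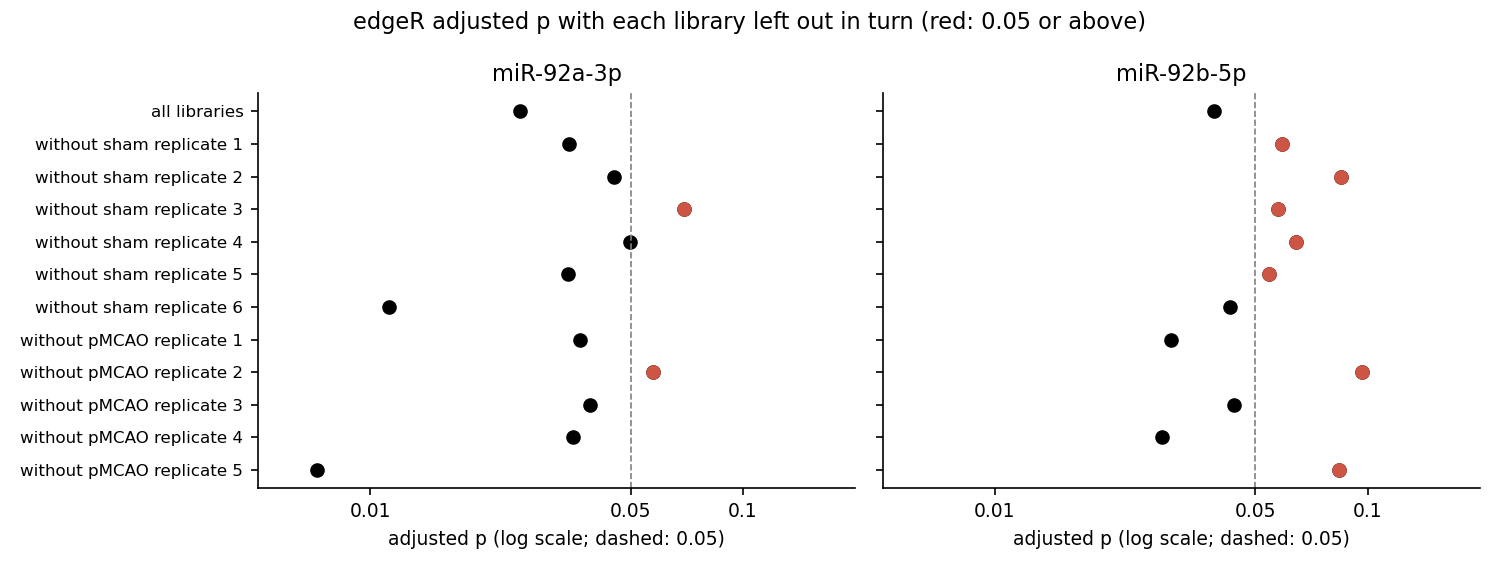
Adjusted p from edgeR (horizontal axes, log scale, threshold of 0.05 dashed) for miR-92a-3p and miR-92b-5p with all libraries and with each of the 11 libraries left out in turn (vertical axis). Points above 0.05 are fits without a call, 2 of 11 for miR-92a-3p and 7 of 11 for miR-92b-5p.

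The main arm, miR-92b-3p, did not pass the threshold. Its sham libraries were close to each other, from 495 to 634 CPM with a median of 563 CPM, whereas its pMCAO libraries split. pMCAO replicates 1 and 2 held 776 and 862 CPM, above every sham library, and replicates 3, 4 and 5 held 551, 580 and 526 CPM, within the sham range. Mean levels were 559 ± 52.0 CPM in the 6 sham and 659 ± 150 CPM in the 5 pMCAO libraries (SD), and the log2 fold change was 0.24 ± 0.14 (SE), with an edgeR adjusted p = 0.359. Both pMCAO libraries with the high levels were also those with the smallest totals, 855753 and 744877 counts. The part of depth in these levels was not tested. Without pMCAO replicate 2 the log2 fold change was 0.15.

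Both arms are cut from the same hairpin. In sham libraries there were 43.0 ± 6.16 counts of miR-92b-3p for each count of miR-92b-5p (SD, n = 6), and in pMCAO libraries 28.6 ± 10.2 (SD, n = 5). On the log2 scale the ratio was 5.52, 5.74, 5.17, 5.41, 5.36 and 5.28 in sham replicates 1 to 6 and 5.48, 4.63, 4.65, 4.97 and 4.13 in pMCAO replicates 1 to 5. The ratio was lower than in every sham library in 4 of the 5 pMCAO libraries, and pMCAO replicate 1 was inside the sham range. The mean difference was -0.65 on the log2 scale, between -0.82 and -0.49 when each library was left out in turn. The ratio does not depend on the scaling of the libraries. It was not tested, because it is made from the same comparison of the groups with which the members were chosen.

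The ratio of miR-92b-3p to its nearest relative in sequence, miR-92a-3p, also differed between the groups. It was 6.23 ± 1.20 in the 6 sham and 3.90 ± 0.777 in the 5 pMCAO libraries (SD), a mean difference of -0.68 on the log2 scale. In log2 terms it lay between 2.20 and 3.02 in sham libraries and between 1.71 and 2.33 in pMCAO libraries. The only overlap came from sham replicate 6, at 2.20, and pMCAO replicate 1, at 2.33. This difference was not tested for the same reason.

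**Figure D4:**
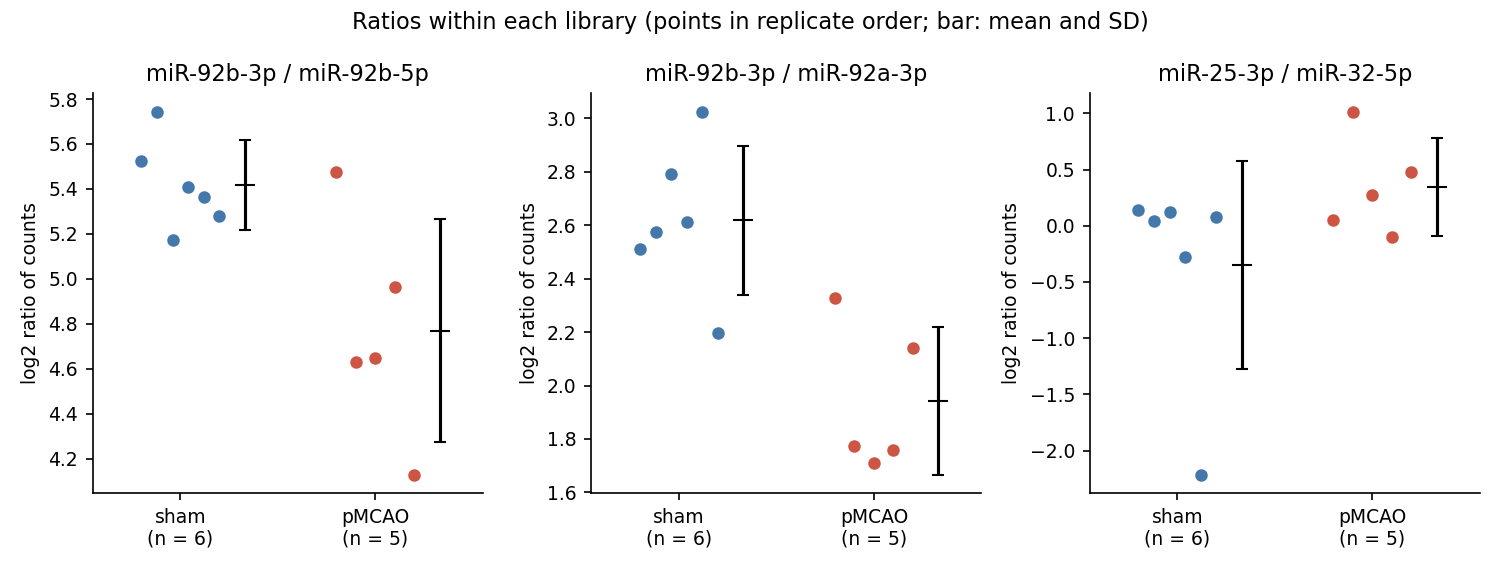
Log2 ratio of counts within each library (vertical axes, which do not start at 0) of miR-92b-3p to miR-92b-5p, miR-92b-3p to miR-92a-3p and miR-25-3p to miR-32-5p, in 6 sham (blue) and 5 pMCAO (red) libraries, with mean and SD in black. The first 2 ratios are lower in most pMCAO libraries, with means of 5.42 and 2.62 in sham and 4.77 and 1.94 in pMCAO, and in the last panel sham replicate 5 stands apart at -2.22.

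miR-25-3p, the member made from Mcm7, had a log2 fold change of 0.65 ± 0.31 (SE), with an edgeR adjusted p = 0.210, and was not called. It had 39.9, 31.4, 25.3, 20.3, 8.01 and 22.5 CPM in sham replicates 1 to 6 and 29.2, 55.6, 36.8, 32.6 and 40.8 CPM in pMCAO replicates 1 to 5. The groups overlapped, since sham replicate 1 was higher than 3 of the 5 pMCAO libraries. Sham replicate 5 was far below the rest, on 11 counts (95% exact Poisson interval 5.49 to 19.7), and without it the log2 fold change was 0.48. Without sham replicate 1 it was 0.85 (adjusted p = 0.101).

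miR-32-5p, the member from the intron of Tmem245, had about the same level in both groups. Its sham libraries ranged from 21.3 to 38.6 CPM with a median of 27.5 CPM. In pMCAO replicates 1 to 5 it had 28.1, 27.2, 30.4, 34.9 and 29.1 CPM, all inside the sham range. The log2 fold change was 0.0497 ± 0.19 (SE), with an edgeR adjusted p = 0.955, and its sign turned without sham replicate 6, to -0.0217.

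miR-363-3p, from the X-linked miR-106a-363 cluster, was near absent from both groups. It had 1 count in sham replicate 1, 1 count in pMCAO replicate 1 and 0 counts in the other 9 libraries, all below the floor of 3 counts, so no fold change is given. Other products of the X-linked hairpins that make family members were not detected. miR-363-5p and miR-92a-2-5p, the arm that only the X-linked Mir92-2 hairpin makes, had 0 counts in every library, which the floor of 3 counts turns into an upper limit of between 1.50 and 3.55 CPM per library. miR-92a-1-5p, the arm particular by sequence to Mir92-1 on chromosome 14, had 8 counts in all 6 sham libraries together and 14 in the 5 pMCAO libraries together, from 0 to 4 and from 1 to 6 per library. Which of the 2 hairpins the miR-92a-3p reads came from was not tested. The remaining other arms had few counts, with at most 1 of miR-25-5p and at most 4 of miR-32-3p in a library, and 0 of the 5 other arms passed the filter.

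All 5 members with the shared seed, added up, reached 706 ± 69.9 CPM in the 6 sham and 901 ± 193 CPM in the 5 pMCAO libraries (SD), a ratio of 1.28 between the group means. The sums overlapped, with 602 to 816 CPM in sham and 715 to 1196 CPM in pMCAO libraries. Of the difference between the means, 51.2% came from miR-92b-3p, 40.9% from miR-92a-3p, 7.39% from miR-25-3p and 0.455% from miR-32-5p. The order of the first 2 turned without either of 2 libraries: miR-92b-3p gave 40.6% and miR-92a-3p 49.5% without pMCAO replicate 2, and 40.8% and 48.8% without pMCAO replicate 1. The difference of the summed means was 195 CPM with all libraries and 121 CPM without pMCAO replicate 2. No test is given for this sum. On the log2 scale the difference was 0.33, and it was 0.51 with scaling by total counts alone, which also raised the median of all miRNAs tested to 0.18.

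The genes cut from the same transcripts as the members were read from the same fit. Their lists were chosen with earlier results of these data known, so their calls are a description. Of all 479 miRNAs tested, 4.38% were called higher and 2.71% lower, and the median log2 fold change was 0.00147. Of the 10 listed arms of the other miR-17-92 miRNAs, 6 were tested, and 4 were called higher, 0 lower and 2 not called. Their median was 0.83 on the log2 scale. The largest were miR-18a-5p at 1.20 ± 0.15 (SE) and miR-19a-3p at 1.00 ± 0.19 (SE), both called, and the value of miR-92a-3p, 0.88, was between the lowest and the highest of these cluster mates. Of the 4 arms of miR-106b and miR-93, which flank miR-25 in Mcm7, all 4 were tested and 0 were called in either direction. Their median was 0.21, with miR-106b-3p at 0.34 ± 0.26 (SE) and miR-93-5p at 0.28 ± 0.15 (SE). Of the 7 other arms of the miR-106a-363 cluster, 0 passed the filter, and together they had at most 9.57 CPM in a library.

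**Figure D5:**
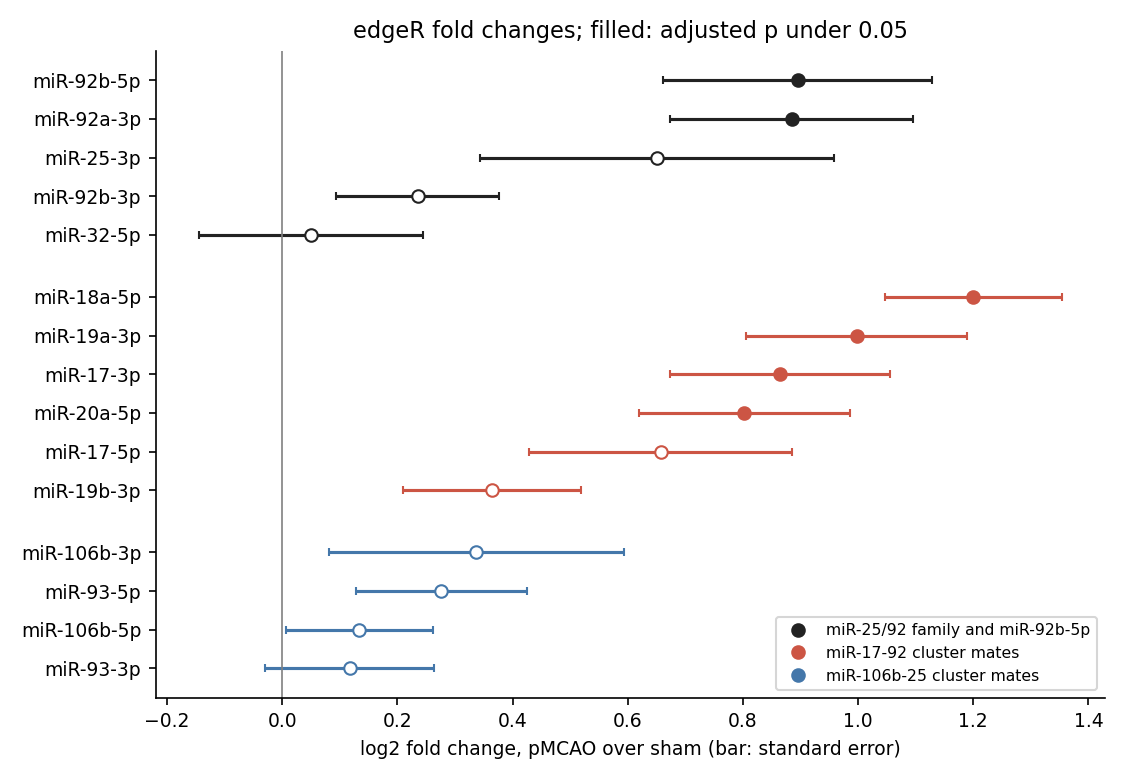
Log2 fold change of pMCAO over sham from edgeR (horizontal axis, bars are standard errors) for the 5 tested family entries (black) and for the tested cluster mates of miR-92a (red, 6 entries) and of miR-25 (blue, 4 entries). Filled points had an adjusted p under 0.05, which holds for 2 of the 5 family entries, 4 of the 6 in red and 0 of the 4 in blue. Of all 479 miRNAs tested, 7.10% had one.

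The miRNAs most like each of the 3 members with the highest mean over all libraries were found by the SD, over the 11 libraries, of the log2 ratio of counts to that member, among the 478 other miRNAs tested. For miR-92b-3p the nearest were miR-99b-3p, miR-7044-3p and miR-455-3p, with SDs of 0.163, 0.165 and 0.166. For miR-92a-3p they were miR-193a-3p, miR-20a-5p and miR-296-5p, at 0.258, 0.332 and 0.345, of which miR-20a-5p is cut from the same cluster. For miR-25-3p they were miR-17-5p, miR-199b-3p and miR-15b-3p, at 0.317, 0.349 and 0.386. No family member was among the 3 nearest of another. Between miR-92b-3p and miR-92a-3p the SD was 0.44, which was rank 275 of 478 counted from miR-92b-3p and rank 29 counted from miR-92a-3p. The other arm, miR-92b-5p, had rank 331 counted from miR-92b-3p and rank 15 counted from miR-92a-3p. miR-92a-3p had rank 18 counted from miR-25-3p, and miR-25-3p rank 59 counted from miR-92a-3p. These ratios carry the group difference and the counting error of both entries, so that they are a description only.

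Markers of blood and immune cells also differed between libraries. The marker lists were chosen with earlier results known, and of all miRNAs tested 4.38% were called higher and 2.71% lower. The 4 myeloid entries (miR-223 and miR-142a, both arms) had 3 tested members, all 3 called higher, with log2 fold changes from 1.46 to 2.31. Their summed level was 275 to 696 CPM in sham and 736 to 3707 CPM in pMCAO libraries, and only miR-223-5p had 0 counts in some of the libraries. The highest myeloid sum was that of pMCAO replicate 2, which was also the highest library for miR-92a-3p, miR-92b-3p, miR-92b-5p and miR-25-3p. That library also had the fewest counts, 744877. Without it the log2 fold changes of these 4 were 0.75, 0.15, 0.79 and 0.54. Other libraries were mixed. The lowest pMCAO myeloid sum, 736 CPM in replicate 1, came with 776 CPM of miR-92b-3p, above every sham library. Among sham libraries, miR-92a-3p was highest in replicate 6, at 138 CPM, where the myeloid sum was 281 CPM. The highest sham myeloid sum, 696 CPM, was that of replicate 1, the highest sham library for miR-25-3p. The 7 erythrocyte entries had 3 tested, 0 of them called, with log2 fold changes from -0.996 to 1.17, 2 of them above 0. The sum of the 7 went from 56.9 to 5410 CPM in sham and from 646 to 4739 CPM in pMCAO libraries. The highest sham sum was that of replicate 1, and the next, 286 CPM in sham replicate 2, was below every pMCAO library. The defining marker miR-451a was at 5115 CPM in sham replicate 1, and there miR-92a-3p was at 89.4 CPM, inside the range of the other sham libraries, while miR-25-3p was at 39.9 CPM, the highest sham value. Without sham replicate 1 the log2 fold changes of miR-92a-3p and miR-25-3p were 0.88 and 0.85, against 0.88 and 0.65 with all libraries. In that fit every pMCAO erythrocyte sum lay above every sham sum, so the erythrocyte level and the surgery cannot be told apart. The 2 endothelial entries, the arms of miR-126a, had 0 calls and sums of 9192 to 13016 CPM in sham and 9518 to 13653 CPM in pMCAO libraries. Of the 4 oligodendrocyte entries (miR-219a and miR-338), 1 was called, lower, and of the 6 neuronal entries 0, with medians of -0.17 and -0.28 on the log2 scale. The part of these cell types in the differences of the family was not tested.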

How the data were processed

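Small RNA libraries of 6 sham and 5 pMCAO samples were analysed, grouped by the sample titles. The authors deposited raw counts per mature miRNA name for each library, made by removing adapters, keeping reads in the length range of mature miRNAs, mapping to mm10 with Bowtie and counting on miRBase entries with HTSeq. The settings, and the fate of reads with several matches, are not given in the sources used here. Reads outside miRNAs are not in the totals, and no molecular identifiers remove PCR copies, so counting intervals cover counting error only.

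With R 4.3.3 and edgeR 4.0.16, 479 miRNAs passed filterByExpr (count of at least 10, total of at least 15) and were TMM-normalised and tested with glmQLFit and glmQLFTest without covariates. DESeq2 1.42.0, the tool of the study's methods, was an alternative. Log2 ratios used counts + 0.5. Each table covered 744877 to 2319810 counts. Hairpin positions came from RefSeq's table and GENCODE vM21. The labels number the replicates without naming animals, so p-values measure only the spread between these samples. On simulated counts (471 miRNAs tested), 99 miRNAs were changed 2-fold and 98 were changed 4-fold. There edgeR recovered 86.9% of 2-fold and 98.0% of 4-fold changes, with 3.70% of its calls false. In the real data 7.10% of miRNAs were called, and both family calls were below 2-fold, so these rates do not carry over to them.

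The family members and all lists were chosen with earlier results of these data known. The miRNAs named are the members, their other arms, names with the same seed, the 3 nearest to each of the 3 highest members, the cell type markers, and the 2 cluster mates with the largest fold changes per cluster. Alternatives were other normalisations, tools, filters and thresholds, thinning (seed 1), the replicate number as a block, and leaving out each library; the shares of the family gain without each library were added after seeing the data.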

Additional observations from a re-analysis of the deposited data

Results flagged for a closer look

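Within each group, the highest and lowest library was compared with the others by Dixon's ratio for 32 groups of values, and 6 had a library far from the rest. For independent values without ties, chance gives about 1 in 20, or 1.6. The groups were not all of that kind, since some ratios share a member and miR-363-3p was mostly 0. No excess is therefore read from the 6. The log2 ratio of miR-25-3p to miR-32-5p was -2.22 in sham replicate 5, against -0.27 or more in the other sham libraries. The log2 ratio of miR-92a-3p to miR-25-3p was 1.54 in pMCAO replicate 5, against 2.17 or more in the other pMCAO libraries. The log2(CPM + 1) of miR-363-3p was 0.71 in sham replicate 1 and 1.09 in pMCAO replicate 1, which is 1 count each, against 0 in all others. The log2(CPM + 1) of miR-451a, the erythrocyte marker, was 12.3 in sham replicate 1, where the next sham library had 7.99. The log2 of the total counts was 21.1 in sham replicate 2, where the next had 20.7.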

How the results depend on the processing

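The log2 fold changes of miR-25-3p (0.62 to 0.87), miR-92a-3p (0.86 to 1.05) and miR-92b-3p (0.20 to 0.41) kept their direction and side of the threshold under the 9 other normalisations, tools, filters, thinning and block. miR-92b-5p lost its call without a filter (0.86, adjusted p = 0.0895) and with the replicate block (0.94, adjusted p = 0.0858), and these left 1 family entry called. The block also turned miR-32-5p to -0.00886. Same-numbered libraries had correlations of deviations from -0.0768 to 0.228, not all above 0.1. Such values cannot decide whether these libraries share more than a number. With log2(CPM + 10), miR-32-5p over miR-25-3p turned to -0.0035. An adjusted p under 0.01 called 0 family entries. miR-92a-3p and miR-92b-5p had unadjusted edgeR p under 0.05, as did 24.4% of all miRNAs tested. With each library left out, 0 to 2 family entries were called; log2 fold changes were 0.48 to 0.85 for miR-25-3p, -0.0217 to 0.15 for miR-32-5p, 0.75 to 1.03 for miR-92a-3p, 0.15 to 0.32 for miR-92b-3p and 0.79 to 1.00 for miR-92b-5p, and miR-32-5p over miR-25-3p ranged from -0.18 to 0.13. Over all miRNAs, 21 higher and 13 lower calls became 43 and 1 with total counts alone. Lower calls were 4 with upper quartile scaling, 8 without a filter, 3 each with the replicate block, with thinning and with a minimum of 10 counts per library; 12 and 2 at an adjusted p under 0.01; 32 and 25 under 0.1; and 13 to 27 and 2 to 13 with each library left out. Causes were not tested.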

Other observations

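In sham replicate 5, the library with the lowest miR-25-3p, several other miRNAs were also below the other sham libraries, both from the family's clusters and from elsewhere. miR-17-5p was at 123 CPM, against 295 to 332 CPM in the other sham libraries, miR-93-5p at 602 CPM, against 913 to 1028 CPM, and miR-106b-3p at 14.6 CPM, against 25.9 to 36.7 CPM. Outside the clusters, miR-126a-5p was at 2051 CPM, against 3311 to 4685 CPM, and miR-128-3p at 53426 CPM, against 69501 CPM or more, so that the low values were not particular to the clusters. In the same library, miR-106b-5p was at 822 CPM and miR-19b-3p at 2619 CPM, the latter the highest sham value, so that arms of the same transcripts stood on both sides. miR-92a-3p, at 60.5 CPM, was also lowest there, and miR-32-5p, at 38.6 CPM, was highest there. These miRNAs were picked after their values were seen, and no explanation was tested.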
